A study of Mus musculus with 4 samples.

Results

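The genes described here are 10 members of the epidermal growth factor (EGF) family and its receptors, taken by gene symbol from the 36144 gene names of a bulk RNA-seq count table of mouse colonoids. They comprise 6 ligand genes (*Areg*, *Ereg*, *Epgn*, *Tgfa*, *Hbegf* and *Btc*), 3 receptor genes (*Egfr*, *Erbb2* and *Erbb3*) and the inhibitor gene *Errfi1*. All 10 were found in the table, and 9 of them were among the 13979 genes that exceeded 10 counts in 2 or more of the libraries; *Epgn* did not. Colonoids are cultures of colonic epithelium grown in a gel from isolated crypts. The libraries came from passage 3 cultures, either untreated or given 2 mM sodium butyrate, on day 2 (48 h) and day 3 (72 h), and each of the 4 conditions was sequenced as 1 library. The labels describe the source as a single wild-type male mouse aged 24 weeks, whereas the study's own description names the Hes1-GFP reporter. Every culture, untreated ones included, received recombinant EGF at 40 ng/ml along with Noggin, R-spondin, CHIR99021 and Y-27632, so that EGFR was supplied with a ligand in all conditions.

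EGF family ligands are made as membrane-anchored precursors, and metalloproteases of the ADAM family release their active domain from the cell surface. The ligands bind EGFR or its relative ERBB4, which pair with each other and with ERBB2 and ERBB3 and signal through the Ras to MAP kinase and PI3 kinase cascades. In the intestinal crypt the pathway is known for sustaining proliferation of stem and progenitor cells and for epithelial repair.

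Library totals ranged from 20790225 to 24207840 counts, and mitochondrial genes took between 14.1% and 18.4% of them. Counts were divided by DESeq2 size factors to give normalised counts, and log2 fold changes were computed on normalised counts plus 1. Because each condition had 1 library, the comparisons at a single time have no replicate error and no test. The intervals given are exact 95% intervals on the pair of counts, they cover counting error only, and a gene is counted as different when it differed by at least 2-fold. The epithelial genes *Krt8* and *Epcam* had 34595 to 39412 and 27501 to 31839 normalised counts, and the 11 epithelial markers together had summed normalised counts between 170471 and 195323. Fibroblast and smooth muscle markers, of which 2 of 9 passed the count filter, summed to between 82.1 and 129 normalised counts. The highest of them was *Pdgfrb*, with 80 counts untreated and 68 with butyrate on day 2, and 105 and 55 on day 3. *Col3a1* and *Lum* were at 0 in every library. Immune markers (1 of 7 past the filter) summed to between 41.7 and 71.3, endothelial markers (1 of 3) to between 28.1 and 53.3, and neural and glial markers (3 of 5) to between 62.4 and 85.3. Within epithelium, fewer cells of a type and less RNA per cell cannot be told apart in these bulk libraries.

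On day 2 the ligand genes *Areg* and *Ereg* were the members that stood highest with butyrate, at 2.45-fold and 2.63-fold the untreated level. The 3 receptor genes, *Hbegf* and *Errfi1* were lower with butyrate at that time. By day 3 *Areg* was 1.09-fold and *Ereg* 1.59-fold the untreated level, and the receptor genes were again lower, by smaller or similar amounts. Of the 9 members past the filter, 2 were at least 2-fold different on day 2, both higher, where 10.0% of all tested genes were (6.94% higher and 3.08% lower). On day 3 none of the 9 was, against 8.31% of all tested genes (4.53% higher and 3.78% lower). Among genes averaging 50 normalised counts or more, as the 9 members do, the shares were 5.48% and 3.93%. These members had a median log2 fold change of −0.22 on day 2 and −0.11 on day 3, beside −0.01 and 0.00 over all tested genes.

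Butyrate was also compared over both days together, by edgeR's quasi-likelihood test with day as a block and Benjamini-Hochberg adjustment over all genes. This fit leaves 1 residual degree of freedom, takes the difference of the butyrate effect between the days as error, and was added after the values had been seen. The cultures are described as coming from 1 mouse, so its p-values cover the spread between these cultures only. *Ereg* passed, with a log2 fold change of 1.03 and an adjusted p of 0.0211, higher with butyrate on 2 of 2 days, and 2.51% of tested genes did so. *Areg* did not pass, with 0.71 and an adjusted p of 0.156 by edgeR. The receptor genes *Egfr* (−0.48, adjusted p 0.131), *Erbb3* (−0.45, 0.141) and *Erbb2* (−0.28, 0.354) did not pass the edgeR test either, and *Tgfa*, *Hbegf*, *Btc* and *Errfi1* had adjusted p-values from 0.420 to 0.828. By DESeq2 with the same design *Ereg* was again the 1 member that passed, with an adjusted p of 0.00528, and *Areg* had 0.923.

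**Figure D1:**
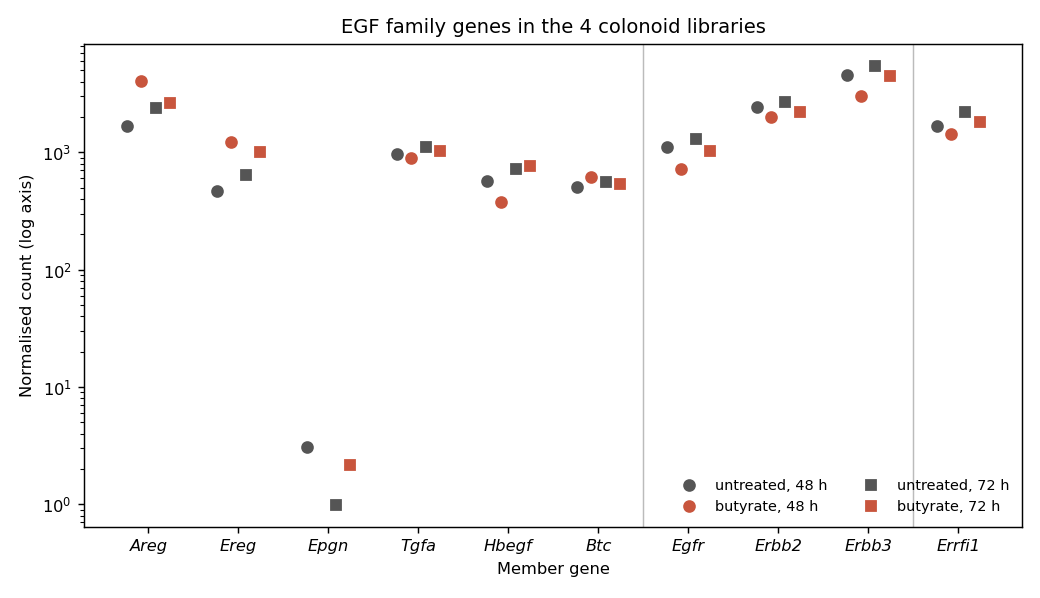
Normalised counts of the 10 member genes (log axis) in the untreated (grey) and butyrate (red) libraries at 48 h (circles) and 72 h (squares), 1 point for each library; vertical lines separate ligands, receptors and the inhibitor. *Areg* and *Ereg* are highest in the butyrate library at 48 h, *Erbb3* and *Egfr* are lowest there, and *Epgn* has at most 3 counts, with its 0 in the butyrate library at 48 h not drawn.

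Amphiregulin, the product of *Areg*, binds EGFR and is known for roles in epithelial growth and repair. *Areg* lies at chr5:91139599-91148432 on the plus strand of GRCm38. It had 1630 counts in the untreated and 4508 in the butyrate library on day 2, and 2417 and 2415 on day 3. As normalised counts these were 1667 and 4090 on day 2, and 2387 and 2608 on day 3. The butyrate library on day 2 was therefore the highest of the 4, and the remaining 3 lay between 1667 and 2608. The log2 fold change with butyrate was 1.29 (1.21 to 1.38) on day 2, at percentile 95.3 of the tested genes, and 0.13 (0.05 to 0.21) on day 3. The effect on day 3 was smaller by 1.17 on the log2 scale (−1.28 to −1.05, from the counting variance of the 4 counts). From day 2 to day 3 *Areg* was higher by 0.52 in untreated cultures (0.43 to 0.61) and lower by 0.65 in treated ones (−0.72 to −0.58), so the untreated and treated levels approached each other from both sides.

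Epiregulin, encoded by *Ereg* at chr5:91074622-91093646 on the plus strand, binds EGFR and ERBB4. *Ereg* had 456 counts untreated and 1353 with butyrate on day 2, and 646 and 940 on day 3. Its normalised counts were 466 and 1228 on day 2, and 638 and 1015 on day 3. Both butyrate libraries exceeded both untreated libraries. The log2 fold change was 1.39 (1.24 to 1.55) on day 2 and 0.67 (0.52 to 0.82) on day 3, and the effect was smaller on day 3 by 0.73 (−0.94 to −0.52). Over time *Ereg* was higher by 0.45 in untreated cultures (0.28 to 0.63) and lower by 0.27 in treated ones (−0.40 to −0.15). The first 152 bases of *Ereg* overlap the antisense gene *Gm19610*, and whether the counting used strand is not given in the sources used here.

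Epigen, the product of *Epgn* at chr5:91027464-91035215, is a low-affinity EGFR ligand. *Epgn* had 3 counts in the untreated and 0 in the butyrate library on day 2, and 1 and 2 on day 3. All 4 values were at or below the floor of 3 counts, which corresponds to between 2.72 and 3.24 normalised counts depending on the library, so no difference was detectable at this depth.

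Betacellulin, encoded by *Btc* at chr5:91357261-91402994 on the minus strand, binds EGFR and ERBB4. *Btc* had 498 counts untreated and 681 with butyrate on day 2, and 561 and 496 on day 3, or 509 and 618, and 554 and 536, normalised counts. Its log2 fold change was 0.28 (0.11 to 0.45) on day 2 and −0.05 (−0.23 to 0.13) on day 3. The butyrate library on day 2 was again the highest of the 4, by a smaller margin than for *Areg* and *Ereg*.

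These 4 ligand genes also lie close together. *Epgn*, *Ereg*, *Areg* and *Btc* lie within 376 kb of chromosome 5, with 46.0 kb between the end of *Ereg* and the start of *Areg*. The protein-coding genes on either side were looked up after the values of the cluster had been seen. *Mthfd2l*, next to *Epgn*, encodes a mitochondrial folate enzyme and had a log2 fold change of −0.40 (−0.64 to −0.15) on day 2 and 0.06 (−0.19 to 0.31) on day 3. *Parm1*, beyond *Btc*, had 0.33 (0.26 to 0.40) and −0.30 (−0.37 to −0.23). On day 2 the neighbouring pair *Ereg* and *Areg* thus held the 2 highest values of the genes past the filter here, and *Mthfd2l* the lowest.

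**Figure D2:**
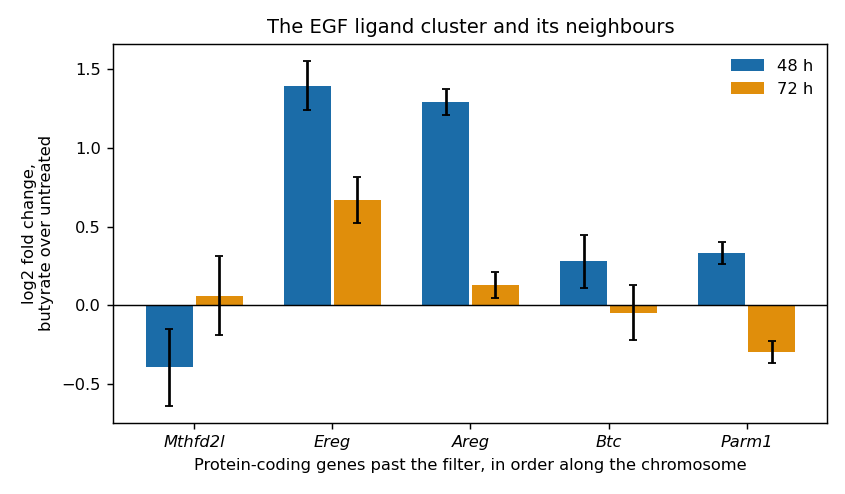
Log2 fold change of butyrate over untreated at 48 h (blue) and 72 h (orange) for the protein-coding genes past the count filter from *Mthfd2l* to *Parm1*, in their order on chromosome 5; bars start at 0 and whiskers are 95% counting intervals. *Ereg* (1.39) and *Areg* (1.29) stand above *Btc* (0.28) and *Parm1* (0.33) at 48 h, and *Mthfd2l* is at −0.40.

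RefSeq start-site windows (250 bases before to 50 after the start, GRCm38.p6) were matched for 7 of the 10 members, in 8 windows. The entries of *Ereg*, *Hbegf* and *Erbb3* were not matched. Each window was searched on both strands for the AP-1 motif TGANTCA, the cyclic AMP response element TGACGTCA, the GC box GGGCGG and the TATA box TATAAA. Of 32851 windows of all genes, 7.81% held the AP-1 motif, 1.79% the cyclic AMP response element, 35.7% the GC box and 13.6% the TATA box. The windows below show *Areg*, its neighbour *Btc*, and *Errfi1*, which held the same motifs as *Areg*. Of the matched members past the filter, *Areg* was furthest from untreated on day 2. Capitals mark the motifs, and each window is written 5′ to 3′ on the gene's strand. The strand was plus for *Areg* (chr5:91139349-91139648), minus for *Btc* (chr5:91402945-91403244) and plus for *Errfi1* (chr4:150854820-150855119).
Areg: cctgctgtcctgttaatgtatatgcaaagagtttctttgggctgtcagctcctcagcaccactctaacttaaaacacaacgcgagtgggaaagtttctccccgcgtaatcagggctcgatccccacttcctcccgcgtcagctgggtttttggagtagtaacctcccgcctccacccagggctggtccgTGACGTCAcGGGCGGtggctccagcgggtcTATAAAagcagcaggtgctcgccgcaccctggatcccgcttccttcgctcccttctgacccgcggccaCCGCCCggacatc
Btc: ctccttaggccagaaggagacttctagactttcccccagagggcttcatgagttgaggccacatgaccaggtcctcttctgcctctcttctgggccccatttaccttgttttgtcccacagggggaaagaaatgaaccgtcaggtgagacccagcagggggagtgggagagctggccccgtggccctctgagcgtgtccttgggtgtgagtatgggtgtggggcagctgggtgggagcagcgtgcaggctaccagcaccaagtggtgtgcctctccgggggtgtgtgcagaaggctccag
Errfi1: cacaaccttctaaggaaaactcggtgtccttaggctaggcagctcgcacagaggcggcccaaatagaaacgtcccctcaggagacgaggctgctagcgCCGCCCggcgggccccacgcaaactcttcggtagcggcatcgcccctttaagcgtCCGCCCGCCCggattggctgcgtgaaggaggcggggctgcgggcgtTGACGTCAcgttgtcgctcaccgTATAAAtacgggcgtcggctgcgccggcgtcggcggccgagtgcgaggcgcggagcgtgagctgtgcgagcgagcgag
The *Areg* window held TGACGTCA starting 61 bases before the start site, a GC box 52 bases before it, TATAAA 31 bases before it and a GC box on the other strand 37 bases after it. In the *Errfi1* window TGACGTCA began 51 bases and TATAAA 28 bases before the start site, and 3 GC boxes on the other strand, 2 of which overlap, lay further upstream; this is 1 of 2 start sites listed for *Errfi1*. The other *Errfi1* window held none of the 4 motifs. The AP-1 motif was in none of these windows. The *Btc* window held none of the 4 motifs, which says only that these letters are not in this window. The printed *Areg* and *Errfi1* windows held the same combination, and the genes had log2 fold changes of 1.29 and −0.22 on day 2. Use of these motifs and start sites in these cultures was not tested.

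Transforming growth factor alpha, encoded by *Tgfa* at chr6:86195223-86275719, is an EGFR ligand of the gut epithelium. *Tgfa* had 947 counts untreated and 990 with butyrate on day 2, and 1115 and 942 on day 3, or 968 and 898, and 1101 and 1017, normalised counts. The 4 libraries lay close together, and the log2 fold changes of −0.11 (−0.24 to 0.02) on day 2 and −0.11 (−0.24 to 0.01) on day 3 both had intervals that included 0. The effects at the 2 times differed by −0.01 (−0.18 to 0.17).

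Heparin-binding EGF-like growth factor, encoded by *Hbegf* at chr18:36504927-36515805, binds EGFR and ERBB4 and is known as an early response gene in wounded epithelium. *Hbegf* had 552 counts untreated and 414 with butyrate on day 2, and 730 and 709 on day 3, or 564 and 376, and 721 and 766, normalised counts. The butyrate library on day 2 was the lowest and the butyrate library on day 3 the highest. Its log2 fold change with butyrate was −0.59 (−0.77 to −0.40) on day 2 and 0.09 (−0.06 to 0.24) on day 3. Between the treated libraries *Hbegf* was higher on day 3 by 1.03 (0.85 to 1.21), the single member of the 9 that differed at least 2-fold in that comparison, where 8.62% of tested genes did (3.67% higher and 4.95% lower). With total count scaling it was just under 2-fold.

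Across the 6 ligand genes the normalised counts summed to 4178 untreated and 7209 with butyrate on day 2, and to 5401 and 5945 on day 3. Shares of these counts follow gene length as well as level. *Areg* made up 39.9% of the ligand counts in the untreated library on day 2 (exact binomial interval 38.4% to 41.4%) and 56.7% with butyrate (55.6% to 57.8%). On day 3 its share was 44.2% (42.9% to 45.5%) untreated and 43.9% (42.6% to 45.2%) with butyrate. *Ereg* took 11.2% (10.2% to 12.2%) and 17.0% (16.2% to 17.9%) on day 2, and 11.8% (11.0% to 12.7%) and 17.1% (16.1% to 18.1%) on day 3. Hence the share of *Ereg* was higher with butyrate at both times and that of *Areg* on day 2 alone, as far as counting error goes. *Tgfa* went from 23.2% (21.9% to 24.5%) untreated to 12.5% (11.7% to 13.2%) with butyrate on day 2, and from 20.4% (19.3% to 21.5%) to 17.1% (16.1% to 18.1%) on day 3. The total of the ligand counts differed between these libraries as given above, while the level of *Tgfa* itself was 968 and 898 normalised counts on day 2. Per kb of exon, the share of *Areg* in the summed ligand level was 73.6% untreated and 83.8% with butyrate on day 2, and 76.7% and 75.9% on day 3. That of *Ereg* was 6.06% and 7.40%, and 6.03% and 8.70%. *Tgfa* had 8.0% and 3.45%, and 6.62% and 5.54%, of the level per kb. These shares depend on the length taken: per kb of mean coding transcript *Tgfa* had 17.1% and 8.27%, and 14.6% and 12.4%. *Areg* had 59.8% and 76.5%, and 64.2% and 64.8%, by that length.

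*Egfr* encodes the receptor for all 6 ligands and lies at chr11:16752203-16918158. It had 1081 counts untreated and 794 with butyrate on day 2, and 1320 and 954 on day 3, or 1105 and 720, and 1303 and 1030, normalised counts. Both butyrate libraries lay below both untreated ones. The log2 fold change was −0.62 (−0.75 to −0.48) on day 2 and −0.34 (−0.46 to −0.22) on day 3, and the effect differed between the times by 0.28 (0.10 to 0.46).

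*Erbb3*, at chr10:128567523-128589652, encodes a neuregulin receptor with little kinase activity of its own that signals by pairing with ERBB2. Its counts were 4450 untreated and 3307 with butyrate on day 2, and 5520 and 4126 on day 3, or 4550 and 3000, and 5450 and 4456, normalised counts. *Erbb3* was lower with butyrate at both times, with log2 fold changes of −0.60 (−0.67 to −0.54) and −0.29 (−0.35 to −0.23), an effect that differed by 0.31 (0.22 to 0.40). *Erbb2*, at chr11:98412470-98437716, encodes the pairing partner for which no ligand is known. It had 2371 and 2202 counts on day 2, and 2697 and 2051 on day 3, or 2424 and 1998, and 2663 and 2215, normalised counts. Its log2 fold changes of −0.28 (−0.36 to −0.19) and −0.27 (−0.35 to −0.18) were nearly equal, with a difference of 0.01 (−0.10 to 0.13). For *Erbb2* and *Erbb3* alike, the untreated library on day 3 was the highest and the butyrate library on day 2 the lowest. Over the 3 receptor genes the normalised counts summed to 8080 untreated and 5719 with butyrate on day 2, and to 9417 and 7702 on day 3. Beside these values, 6 of the 11 epithelial markers were higher and 5 lower with butyrate on day 2, with a median of 0.07, whereas 10 of the 11 were lower on day 3, with a median of −0.24, and their part in the receptor values was not tested.

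*Errfi1*, at chr4:150853919-150868892, encodes an inhibitor that binds the EGFR kinase domain and is itself induced by EGFR signalling. It had 1636 counts untreated and 1581 with butyrate on day 2, and 2222 and 1692 on day 3, or 1673 and 1434, and 2194 and 1827, normalised counts. Its log2 fold change was −0.22 (−0.32 to −0.12) on day 2 and −0.26 (−0.36 to −0.17) on day 3, with a difference between the times of −0.04 (−0.18 to 0.09). Levels on day 3 were above those on day 2 in both conditions, by 0.39 (0.30 to 0.48) untreated and 0.35 (0.25 to 0.45) with butyrate.

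**Figure D3:**
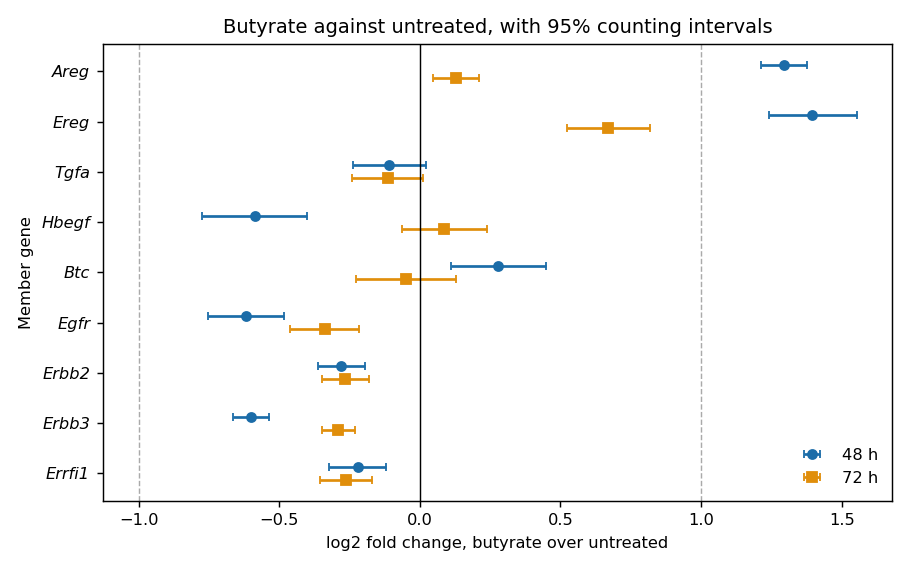
Log2 fold change of butyrate over untreated for the 9 members past the count filter at 48 h (blue circles) and 72 h (orange squares), with exact 95% counting intervals; dashed lines mark a 2-fold difference. *Areg* and *Ereg* lie beyond the 2-fold line at 48 h, and the receptors and *Errfi1* lie left of 0 at both times.

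In untreated cultures all 9 members past the filter were higher on day 3 than on day 2, with log2 differences from 0.12 for *Btc* to 0.52 for *Areg*. Of the 9 intervals 8 lay above 0, as did those of 22.4% of all tested genes and of 30.3% of the 7206 genes averaging at least 500 normalised counts, as the members do, a limit chosen after seeing the data. Beside the members, 12 of 16 feedback and target genes of the MAP kinase pathway were above 0 in this comparison, with a median of 0.26, as were 12 of 16 genes of the Ras to MAP kinase core, and 7 of 11 epithelial markers had intervals above 0 and 4 below. Of the other lists, ligand shedding had 8 of 9 above 0, the PI3 kinase arm 5 of 9, receptor turnover and inhibition 3 of 11, with a median of −0.14, and the other family members 0 of 2. These list counts are by DESeq2 size factors. With total count scaling the median of the PI3 kinase arm was −0.06, in place of 0.01. The 9 members were also higher under each of the scalings tried, where total count scaling gave 0.04 for *Btc* and 0.44 for *Areg*. None reached 2-fold, against 4.49% of all tested genes (2.66% higher and 1.82% lower). The median of the 9 was 0.26, beside 0.00 over all tested genes, of which 7066 of 13979 were higher. In treated cultures 6 of the 9 were higher on day 3 and 3 were lower, namely *Areg*, *Ereg* and *Btc*. These comparisons over time use the same 4 libraries as the comparisons with butyrate and are not independent of them.

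**Figure D4:**
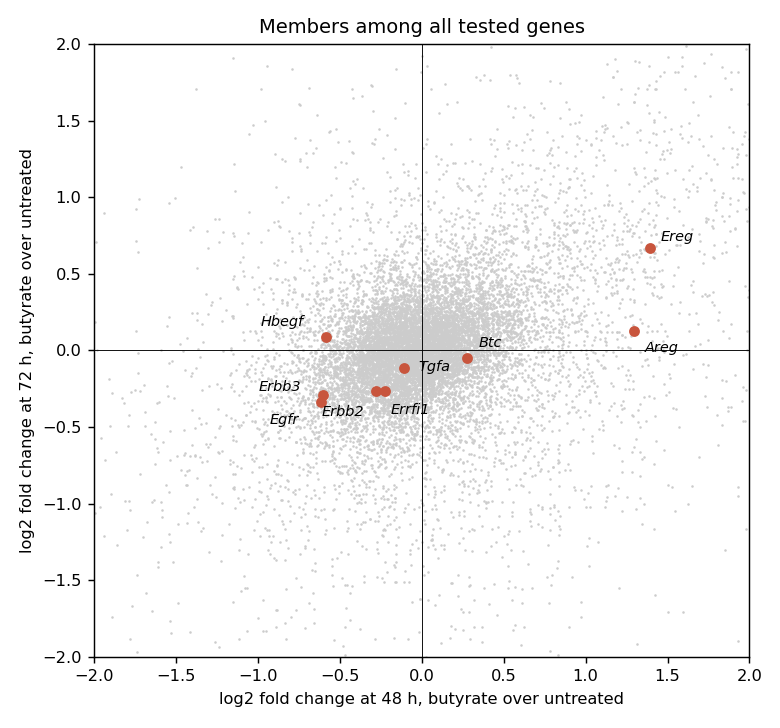
Log2 fold change of butyrate over untreated at 48 h (horizontal) and 72 h (vertical) for all 13979 tested genes (grey) and the 9 members past the filter (red); 531 genes lie outside the axes, which end at 2 in each direction. *Areg* and *Ereg* lie to the right, and the receptors and *Errfi1* in the lower left quadrant.

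Levels of different genes were compared as normalised counts per kb of exon length. *Areg* was the most abundant member in each library, with 1372 per kb untreated and 3366 with butyrate on day 2, and 1964 and 2147 on day 3. *Erbb3* came next, with 756 and 499 per kb on day 2, and 906 and 741 on day 3. *Errfi1* followed with 467 and 400, and 612 and 510, and then *Erbb2* with 465 and 383, and 511 and 425; on day 2 the counting intervals of *Errfi1* and *Erbb2* overlapped in both libraries. In the untreated library on day 2 *Hbegf* (117 per kb), *Ereg* (113), *Btc* (113) and *Egfr* (97.6) had counting intervals that each overlapped the neighbour's in this order. By this length *Ereg* stood in the fifth place of the 10 with butyrate, at 297 per kb on day 2 and 246 on day 3, above *Tgfa* (138 and 157), *Btc* (137 and 119) and *Hbegf* (77.7 and 158). *Egfr* likewise had the lowest level per kb after *Epgn* in each library, from 63.6 to 115, although in the untreated libraries its interval overlapped that of *Btc*. The lower places turn with the length taken for each gene, *Egfr* having 11326 bases of annotated exon and a mean coding transcript of 4538 bases. Per kb of mean coding transcript, *Ereg* (297) was below *Tgfa* (364) on day 2 with butyrate, and on day 3 its level of 246 was below those of *Tgfa* (412) and *Hbegf* (322). By the longest transcript *Hbegf*, at 265 per kb, was also above *Ereg* on day 3 with butyrate. *Egfr*, at 244 per kb of mean coding transcript in the untreated library on day 2, was above *Btc* (177) and *Ereg* (113), and in the other 3 libraries too it was above another member besides *Epgn*, narrowly so with butyrate on day 2.

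The genes nearest in pattern to *Areg* and *Ereg*, by the distance between log2 normalised counts centred over the 4 libraries, were sought among the other 10772 genes with a mean of at least 100. Those nearest to *Areg* were *Ptpn13* (distance 0.07), *Il17rb* (0.13) and *Kank2* (0.13). For *Ereg* they were *Ift57* (0.06), *Tcf24* (0.07) and *Tstd3* (0.08). *Ereg* came 147th in likeness to *Areg* and *Areg* 71st in likeness to *Ereg*, at a distance of 0.42.

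The family members outside the 10 were low. *Egf* itself had 71 counts untreated and 46 with butyrate on day 2, and 60 and 52 on day 3, a log2 fold change of −0.78 (−1.37 to −0.24) and −0.08 (−0.64 to 0.48). *Nrg4*, a ligand of ERBB4, had 35 and 17 counts, and 11 and 9, with log2 fold changes of −1.16 (−2.14 to −0.34) and −0.15 (−1.61 to 1.25). The others did not pass the filter. *Nrg1* had between 2 and 6 counts, *Nrg2* and *Erbb4* between 0 and 2, and *Nrg3* 0 in each library, so that all 4 *Nrg3* values were under the floor of 3 counts.

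In the list of ligand shedding genes, 1 of 9 was at least 2-fold different with butyrate on day 2 and none on day 3, with medians of −0.13 and 0.03 (−0.03 on day 3 for genes averaging 50 normalised counts or more), beside 10.0% and 8.31% of all tested genes. *Adam15*, a metalloprotease gene, had 693 counts untreated and 1912 with butyrate on day 2, and 844 and 864 on day 3, log2 fold changes of 1.29 (1.17 to 1.42) and 0.16 (0.02 to 0.30). *Adam17*, which encodes the main protease that sheds amphiregulin, was chosen after its values were seen and had 0.10 (−0.01 to 0.21) and 0.33 (0.22 to 0.43). The 11 genes of receptor turnover and inhibition and the 16 genes of the Ras to MAP kinase core held none that was 2-fold different at either time, with medians of −0.02 and 0.05, and of −0.10 and −0.07.

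Among 9 genes of the PI3 kinase arm, with medians of −0.05 and −0.04 (0.01 on day 3 with total count scaling), 1 was at least 2-fold higher at both times, where 6.94% of tested genes were on day 2 and 4.53% on day 3. It was the gene *Pik3cd*, which passed the count filter through its butyrate libraries alone and so had to be higher there. *Pik3cd* encodes a catalytic subunit best known from leukocytes, and it had 6 counts untreated and 28 with butyrate on day 2, and 4 and 14 on day 3, log2 fold changes of 1.89 (0.75 to 3.61) and 1.70 (0.27 to 4.0). Beside it, the summed immune markers were 59.3 untreated and 41.7 with butyrate on day 2, and 64.2 and 71.3 on day 3. The highest of them in each library was *Itgam*, with 48 counts untreated and 36 with butyrate on day 2, and 41 and 43 on day 3. *Csf1r* had 1 and 2 counts on day 2, and 0 and 16 on day 3, while *Ptprc* had 5 and 6, and 15 and 6. *Adgre1* had 0 in every library. Their part in the *Pik3cd* values was not tested.

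Feedback and target genes of the MAP kinase pathway, 16 in all, had medians of −0.34 on day 2 and −0.12 on day 3. On day 2 10 of the 16 were below 0, 7 with intervals below 0, while 4 had intervals above 0. Besides *Ier3*, given below, the latter were *Phlda1* at 0.22 (0.18 to 0.27), *Emp1* at 0.17 (0.13 to 0.21) and *Fosl1* at 0.36 (0.03 to 0.70), named after their values were seen. On day 3 *Phlda1*, *Emp1* and *Fosl1* had 0.07 (0.01 to 0.13), −0.12 (−0.16 to −0.08) and −0.20 (−0.44 to 0.03). Over all tested genes 7165 of 13979 were below 0 on day 2, 31.3% had intervals below 0 and 29.3% had intervals above 0. These shares cover genes of all levels and were not matched to the level of the 16. Chosen after their values were seen, the Sprouty gene *Spry1* had −0.67 (−0.89 to −0.45), the phosphatase gene *Dusp6* −0.44 (−0.61 to −0.28) and the transcription factor gene *Etv5* −0.57 (−0.74 to −0.40) on day 2. On day 3 these values were −0.04 (−0.20 to 0.12), −0.14 (−0.31 to 0.02) and −0.15 (−0.33 to 0.02). *Spry2* and *Etv4*, also chosen after their values were seen, were lower on both days, with −0.48 (−0.68 to −0.29) and −0.48 (−0.67 to −0.29) for *Spry2*, and −0.40 (−0.60 to −0.20) and −0.50 (−0.70 to −0.30) for *Etv4*. In all, 11 of the 16 were below 0 on day 3, 5 with intervals below 0, while 3 had intervals above 0, as did 3695 and 3620 of the 13979 tested genes in those directions. *Ier3*, an early response gene, was the 1 gene of the 16 at least 2-fold different on day 2, where 10.0% of all tested genes were, with 1180 counts untreated and 2821 with butyrate on day 2, and 643 and 955 on day 3, log2 fold changes of 1.08 (0.99 to 1.18) and 0.70 (0.55 to 0.85). On day 3, where 8.31% of all tested genes were, the 1 such gene was *Spry4*, which encodes a Sprouty inhibitor of the cascade. It had 51 and 39 counts on day 2, and 41 and 13 on day 3, log2 fold changes of −0.55 (−1.20 to 0.07) and −1.46 (−2.55 to −0.60).

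**Figure D5:**
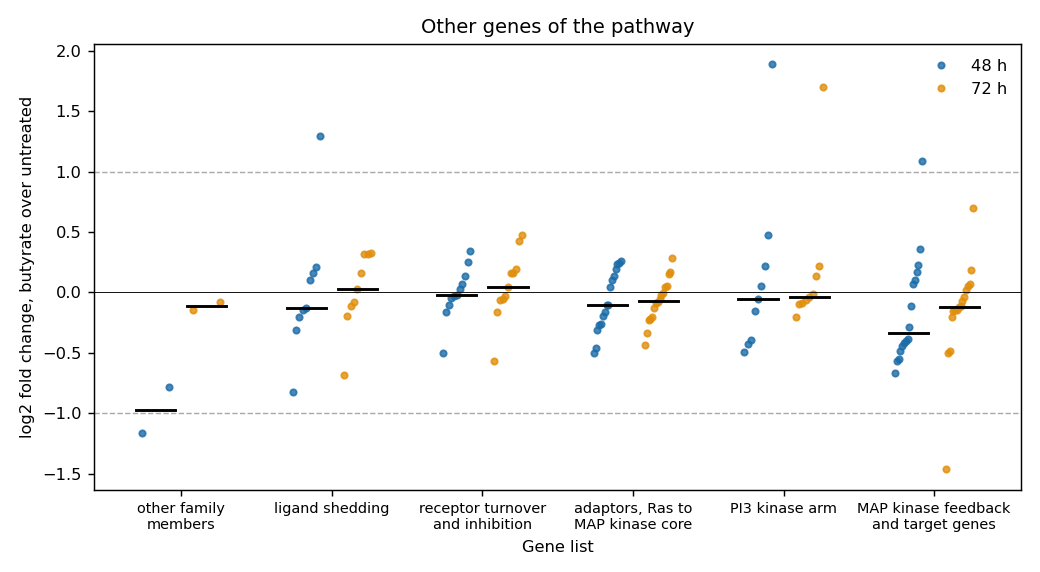
Log2 fold change of butyrate over untreated at 48 h (blue) and 72 h (orange) for each gene past the count filter in 6 lists of the pathway; black lines are medians and dashed lines mark a 2-fold difference. Most genes lie between the dashed lines, and the points beyond them are *Nrg4*, *Adam15*, *Pik3cd*, *Ier3* and *Spry4*.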

How the data were processed

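Poly-A RNA-seq counts per gene were analysed in 4 libraries, 1 for each condition. The authors deposited estimated counts, rounded to whole numbers, from a kallisto-based pipeline summed to genes with tximport; the submitters' processing notes name kallisto 0.44.0 and GRCm38.p6. In the table, 26 names had turned into calendar dates and stayed in the totals unnamed. Fold changes over all genes were limited to those exceeding 10 counts in 2 or more libraries, the filter of the study's methods. Size factors came from DESeq2 1.42.0 and TMM factors from edgeR 4.0.16 in R 4.3.3; intervals were computed in Python 3.11.15 with scipy 1.17.1. Exon lengths and gene positions were taken from GENCODE vM21, of the same build. The floor was 3 counts. Since the reads carried no molecular identifiers, repeated copies of a molecule could not be told apart, and the intervals cover counting error only. edgeR and DESeq2 also tested butyrate with day as a block over the 4 libraries, a fit added after the values were seen; no other p-values were computed. Fold changes and intervals were tested on simulated data.

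The members and lists were chosen with earlier results of these data known. Named were all members, all other family members, at most 4 genes of each pathway list at least 2-fold different with butyrate, and the 3 genes nearest in pattern to each member at least 2-fold different. Outside this rule, *Adam17*, *Spry1*, *Spry2*, *Dusp6*, *Etv4*, *Etv5*, *Phlda1*, *Emp1*, *Fosl1*, *Mthfd2l* and *Parm1* were chosen after their values were seen. So were the cell type markers named singly. Alternatives were other scalings, a pseudocount of 5, a fold of 1.5, a mean count of at least 50 and other transcript lengths.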

Additional observations from a re-analysis of the deposited data

Results flagged for a closer look

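The butyrate effect had opposite signs on day 2 (48 h) and day 3 (72 h) for 2 members, with a counting interval of the difference that excluded 0. For *Hbegf* the log2 fold change was −0.59 on day 2 and 0.09 on day 3, a difference of 0.67 (0.44 to 0.91). *Btc* had 0.28 and −0.05, a difference of −0.33 (−0.57 to −0.09). In both genes the day 3 value alone had an interval that included 0, and with total count scaling that of *Btc* was 0.00, just above 0. With 1 library for each condition, neither difference was tested, and time of exposure and a difference between single cultures cannot be told apart.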

How the results depend on the processing

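All alternatives were planned, except the share among genes averaging at least 500 normalised counts and the fit of butyrate with day as a block, which were chosen after seeing the data; that fit gave 351 genes at an adjusted p under 0.05 by edgeR and 254 by DESeq2. Leaving out a library from that fit leaves no residual degrees of freedom. Of 180 recomputed log2 fold changes of members, 179 stayed within their counting intervals, and the exception was *Erbb3* from 48 h to 72 h in untreated cultures, 0.18 with total count scaling. *Btc* at 72 h, whose interval included 0, became 0.00 with that scaling, slightly above 0. For butyrate at 48 h, *Areg* stayed between 1.28 and 1.30 and *Ereg* between 1.38 and 1.40. Between the treated libraries *Hbegf* was just under 2-fold with total count scaling, so that 0 members were counted instead of 1. A fold of 1.5 counted 5 members at 48 h, 1 at 72 h and 2 between the treated libraries, and 22.0%, 18.0%, 12.0% (untreated over time) and 21.6% (treated over time) of tested genes. A pseudocount of 5 gave 2.83% of tested genes in untreated cultures over time. When genes were required to average 50 normalised counts or more, the shares were 5.48% at 48 h, 3.93% at 72 h, 1.6% in untreated and 4.16% in treated cultures over time. *Nrg4*, *Pik3cd* and *Spry4* were then no longer among the tested genes. The receptor genes and *Errfi1* were below 0 with butyrate at both times in every alternative. The order of members per kb kept between 32 and 36 of 36 pairs with other transcript lengths. The cause of these shifts was not tested, except that a lower fold and fewer genes change a count by construction. Depth limits *Epgn* and the neuregulins.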
